A study of Mus musculus with 9 samples.

Results

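Lungs of tumour-bearing mice treated with free antibody against PD1 were compared with lungs of tumour-bearing mice that received phosphate-buffered saline (PBS). Genes entered the comparison where 3 or more of these 6 libraries reached 1 TPM, which left 13007 of the 45706 genes in the deposited table. TPM are transcript abundances corrected for transcript length and scaled to a common total. The study holds 9 lung libraries, 3 per group, and the 3 libraries of mice treated with nanocapsules of the antibody were left out. Every mouse was a female of the BALB/c strain, 4 to 6 weeks old, with 4T1 cells, a line from a mouse mammary carcinoma, implanted in the right flank. PBS or antibody was given on days 7 and 14, and the lungs were taken on day 21. A dose of 150 µg per mouse is labelled, and whether it holds for the free antibody as well as the nanocapsules is not clear from the wording. The control is PBS and not a control antibody, both groups carry the tumour, and no tumour-free lung was compared. Each library came from bulk lung tissue after selection of polyadenylated RNA. The labels give each lung a number and no animal, so the p-values measure only how far these samples spread, which may be technical.

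PD1, the product of Pdcd1, restrains activated T cells as an inhibitory receptor, and its ligands PD-L1 (Cd274) and PD-L2 (Pdcd1lg2) are carried by tumour cells and by many immune and tissue cells. Antibodies that block it release T cells from this restraint and are used in cancer therapy, where inflammation of the lung is a known adverse effect. The 4T1 tumour is known to release factors that drive the output of granulocytes from the marrow, and to seed metastases in the lung.

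The tissue label was checked against markers of lung. Sftpc of alveolar type 2 cells, Scgb1a1 of club cells and Ager of alveolar type 1 cells were present in all 6 libraries, at 343 to 3316, 2608 to 9961 and 17.03 to 56.3 TPM. The number of genes at 1 TPM or more was 12349 to 13407 per library, and because TPM keep no read depth, the depth behind each value is unknown. Library PBS 2 stood apart, at -42.3 on the first principal component, which held 45.4% of the variance, against -8.37 to 32.5 for the other 5. It also had the highest share of TPM in S100a8 and S100a9, the main cytosolic proteins of neutrophils, at 16.7% against 10.3% to 12.7%, and the lowest share from the mitochondrial genome, at 2.37% against 3.90% to 5.76%. Libraries anti-PD1 3 and PBS 3 were the highest of their groups in Rag1 and Dntt, genes of immature thymocytes, with 28.3 and 8.62 TPM of Rag1 against 0.338 to 3.46 TPM in the other 4 lungs. Over all 45706 genes of the deposited table, including those below the filter, Spearman correlations of libraries reached 0.939 to 0.945 for lungs of the same group and 0.936 to 0.946 for lungs of different groups. Values below are given for lungs 1, 2 and 3 of a group in that order, and where 2 sets of 3 are joined by against, the anti-PD1 lungs come first. Log2 differences are anti-PD1 minus PBS on the scale of log2(TPM + 1), which understates the change of low genes.

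Of the 13007 genes, 1 passed the test, limma on log2(TPM + 1) with a Benjamini-Hochberg adjusted p under 0.05, a share of 0.00769%. This gene was Tmem254b, which encodes a small transmembrane protein, and it was lower in the anti-PD1 lungs. At an unadjusted p under 0.05 there were 2262 genes, or 17.4%, of which 1092 (8.4%) were higher and 1170 (9%) lower in the anti-PD1 lungs. In 3341 genes, or 25.7%, the 3 lungs of one group lay entirely on one side of the 3 of the other, with all anti-PD1 lungs above in 1571 (12.1%) and below in 1770 (13.6%). The difference was positive in 56.7% of the genes and negative in 43.3%, and median-of-ratios scaling turned this balance to 6061 positive and 6946 negative. Differences were small for most genes, with a median of 0.04, a 5th percentile of -0.39 and a 95th percentile of 0.59. There were 192 genes that differed by more than 1 on the log2 scale, 140 higher and 52 lower. The second smallest adjusted p was 0.0934, and 1495 genes had an adjusted p under 0.25. Every gene group below is therefore described by its values and counts, read against these shares, and apart from Tmem254b none of the genes named passed the adjusted test. These shares hold for all 6 libraries and change when libraries are left out. At an unadjusted p under 0.05, 635 genes were higher and 793 lower without PBS 2, and 567 higher and 666 lower without anti-PD1 3.

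**Figure D1:**
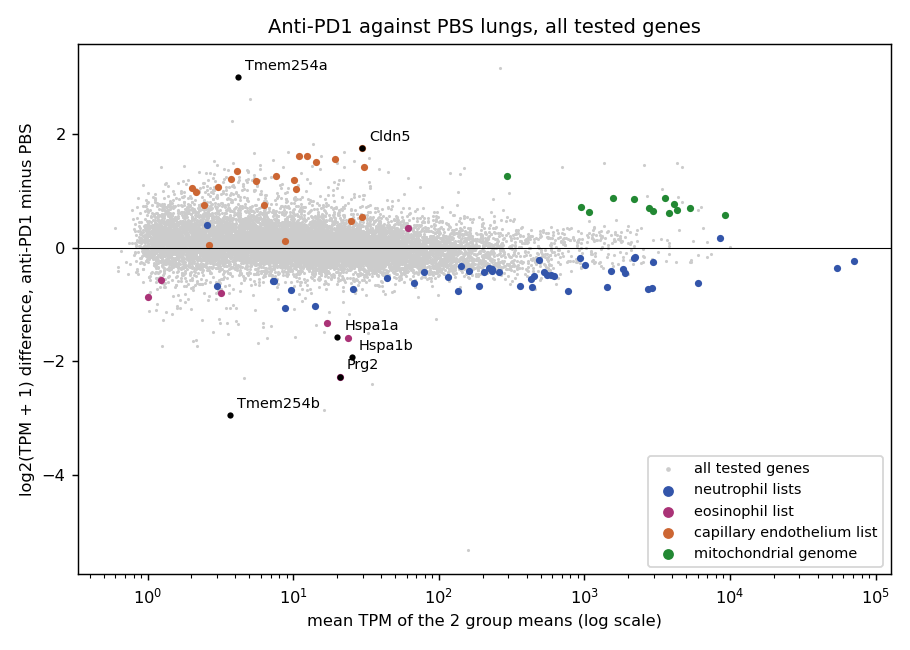
Log2(TPM + 1) difference, anti-PD1 minus PBS (vertical axis), against the mean TPM of both group means (horizontal axis, log scale) for the 13007 tested genes, with members of the neutrophil, eosinophil, capillary endothelium and mitochondrial genome lists coloured and 6 genes labelled. The neutrophil genes sit mostly below 0 at high TPM, the endothelial genes above 0 at low to middle TPM, and Tmem254a and Tmem254b mirror each other at 2.999 and -2.95.

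Tmem254b had 0, 0 and 0.189 TPM in anti-PD1 lungs and 7.99, 8.12 and 5.66 TPM in the PBS lungs. The groups did not overlap, 2 anti-PD1 lungs were listed at 0, and the log2 difference was -2.95 (SE 0.19) with a limma adjusted p of 0.0117. The gene is 1 of 3 copies that lie near each other on the minus strand of chromosome 14 in GRCm38. Tmem254a runs from 25923300 to 25927672, Tmem254c from 26063919 to 26067355 and Tmem254b from 26203369 to 26207041. The 387-base coding sequences of the 3 copies, read from the GENCODE M21 annotation, differ at 0 positions, so reads from them cannot be told apart within the coding part. The first 300 bases of this sequence, read 5′ to 3′ from the start codon, are shown because the call rests on telling these copies apart.
Tmem254a, Tmem254b and Tmem254c: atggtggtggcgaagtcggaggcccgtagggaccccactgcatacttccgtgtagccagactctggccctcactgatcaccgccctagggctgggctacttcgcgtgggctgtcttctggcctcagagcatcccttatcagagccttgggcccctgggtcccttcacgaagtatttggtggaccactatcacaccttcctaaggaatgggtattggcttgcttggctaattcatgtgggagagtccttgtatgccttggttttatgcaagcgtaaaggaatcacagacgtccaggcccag
Tmem254a had the opposite pattern, at 7.82, 5.02 and 11.8 TPM in anti-PD1 lungs and 0, 0 and 0.327 TPM in the PBS lungs, with a difference of 2.999 (SE 0.29) and a limma adjusted p of 0.0934. Tmem254c had 6.20, 7.04 and 0 TPM in anti-PD1 lungs and 3.33, 1.16 and 8.36 TPM in the PBS lungs, with 0 in anti-PD1 3, and its groups overlapped. Summed over the copies, the level was 14.02, 12.1 and 11.97 TPM in anti-PD1 lungs and 11.3, 9.28 and 14.3 TPM in the PBS lungs, or 12.7 ± 1.16 and 11.6 ± 2.55 (SD, n = 3). The summed levels of both groups overlapped, with the lowest and the highest value both among PBS lungs. In the 3 nanocapsule lungs, which take no part in the comparison, Tmem254b was at 0, 4.32 and 4.68 TPM and Tmem254a at 4.20, 0.236 and 0 TPM. The call of Tmem254b was lost without anti-PD1 1 (limma adjusted p = 0.127), anti-PD1 2 (0.0659), PBS 1 (0.0868) or PBS 2 (0.148), and kept without anti-PD1 3 (0.0287) or PBS 3 (0.0353). It was also lost with a pseudocount of 0.1 (limma adjusted p = 0.129), with no filter on low genes (0.104) and when the nanocapsule libraries joined the fit (0.206), and over all alternatives its adjusted p was 0.00164 to 0.206.

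The inducible heat shock proteins of the HSP70 family, which bind unfolded proteins and are switched on by heat and other stress, stood lower in the anti-PD1 lungs. Hspa1b, on chromosome 17 from 34956436 to 34959238 of GRCm38, had 9.22, 10.1 and 9.64 TPM in anti-PD1 lungs and 29.1, 53.5 and 39.4 TPM in the PBS lungs. Every anti-PD1 lung was below every PBS lung and the 3 lay close together, while the PBS lungs spread widely with PBS 2 the highest. The PBS mean was 4.22-fold the anti-PD1 mean, with a difference of -1.93 (SE 0.20) and a limma adjusted p of 0.107. Its neighbour Hspa1a, on chromosome 17 from 34969190 to 34972156, had 8.41, 9.54 and 9.47 TPM in anti-PD1 lungs and 19.6, 44.6 and 28.1 TPM in the PBS lungs. Its groups did not overlap either, with a difference of -1.57 (SE 0.26) and a limma adjusted p of 0.234. The coding sequences of 1923 and 1926 bases are 99.43% identical, with 11 differences, so the split between both genes is uncertain. Their sum does not depend on that split, and it was 17.6, 19.6 and 19.1 TPM in anti-PD1 lungs and 48.7, 98.03 and 67.5 TPM in the PBS lungs, a ratio of 3.80. Hspa1b passed the adjusted threshold when the spread was estimated over all 9 libraries (limma adjusted p = 0.0438) or with library weights (0.0350), within a range of 0.0350 to 0.430 over all alternatives.

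The 250 bases before the start of both genes are shown because they moved together and share nearly all of this stretch. They were taken from RefSeq on GRCm38.p6, minus strand, chr17:34959239-34959488 for Hspa1b and chr17:34972157-34972406 for Hspa1a, and differ at 3 of 250 positions. Capitals mark a match to GAANNTTC, the head-to-head pair of the 3-base units that the heat shock factor HSF1 is known to bind.
Hspa1b: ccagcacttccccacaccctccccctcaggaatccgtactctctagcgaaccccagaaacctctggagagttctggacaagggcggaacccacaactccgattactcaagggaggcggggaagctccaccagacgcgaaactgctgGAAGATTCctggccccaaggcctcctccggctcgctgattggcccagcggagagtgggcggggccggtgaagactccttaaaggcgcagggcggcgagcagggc
Hspa1a: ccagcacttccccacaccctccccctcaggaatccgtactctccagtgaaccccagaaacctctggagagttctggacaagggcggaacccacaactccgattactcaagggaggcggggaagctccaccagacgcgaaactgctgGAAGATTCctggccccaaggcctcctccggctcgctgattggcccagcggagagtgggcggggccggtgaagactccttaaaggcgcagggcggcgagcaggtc
GAANNTTC reads the same on both strands, and it was found in 6.694% of 32851 promoters of the same 250 bases, with the tail-to-tail pair TTCNNGAA in 7.166% and either of them in 12.84%. A match is a description of the letters and not evidence that the site was bound.

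Among the 17 tested heat shock chaperones, 12 had lower and 5 higher means in the anti-PD1 lungs, with a median difference of -0.20 against 0.04 over all genes. Without PBS 3 this median was -0.07 and without PBS 2 -0.31. At an unadjusted p under 0.05, 6 were lower and 1 higher. Dnaja1, a co-chaperone of HSP70, had 110.2, 94.3 and 115 TPM in anti-PD1 lungs and 145, 145 and 169 TPM in the PBS lungs, without overlap. Of 19 genes of the unfolded protein response, 11 had lower and 8 higher means, with a median of -0.02 that was above 0 without anti-PD1 2, PBS 1 or PBS 3. Hspa5, the chaperone of the endoplasmic reticulum, had 249.8, 243 and 259 against 317, 271 and 296 TPM in anti-PD1 and PBS lungs. Ddit3, a transcription factor of that response, had 28.4, 34.8 and 29.2 against 59.7, 54.04 and 37.6 TPM, again without overlap. Of 17 immediate early genes, which respond within minutes to stimulation or to handling of tissue, 15 had lower means, with a median of -0.14, and 1, Atf3, had an unadjusted p under 0.05, with a difference of -0.44 and overlapping groups. Without PBS 3 there were 5.

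**Figure D2:**
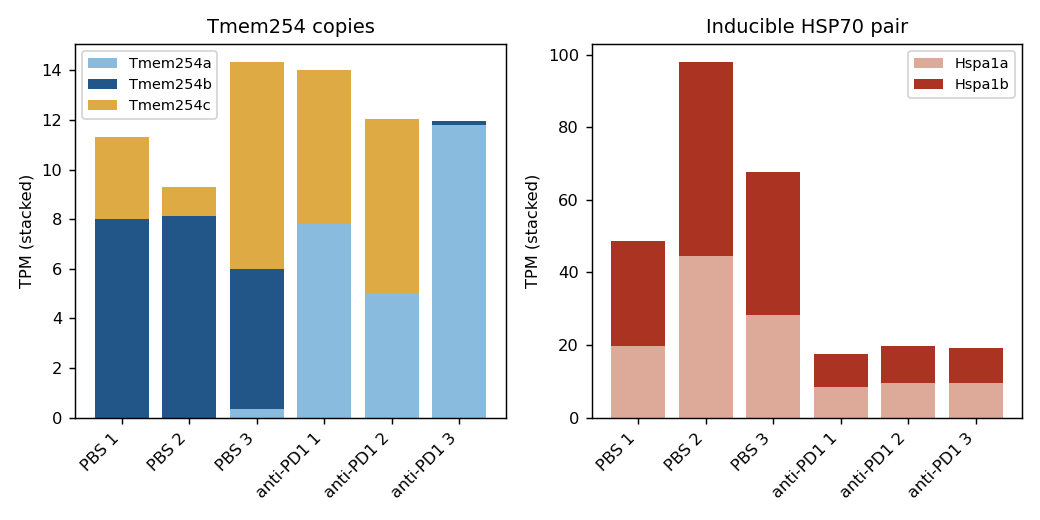
Stacked TPM in each of the 6 lungs for the 3 Tmem254 copies (left) and for the Hspa1a and Hspa1b pair (right). Tmem254a and Tmem254b exchange places between the groups, and Tmem254c overlaps between them. The sums of the 3 copies also overlap, at 9.28 to 14.3 TPM in PBS and 11.97 to 14.02 TPM in anti-PD1 lungs. The HSP70 sum is 48.7 to 98.0 TPM in PBS and 17.6 to 19.6 TPM in anti-PD1 lungs.

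Neutrophil genes were abundant in every lung and had lower means in the anti-PD1 lungs. Neutrophils fill their primary granules as precursors in the marrow, their secondary and tertiary granules as they mature, and carry S100a8 and S100a9 in the cytosol. In bulk tissue, fewer cells of a type and less RNA per cell cannot be told apart, here and in the lists below. Of the 12 genes of precursors and primary granules, 11 had lower means, 11 at an unadjusted p under 0.05, and 10 without overlap of the groups. Their median difference was -0.64. Mpo, the gene of myeloperoxidase on chromosome 11 from 87793581 to 87804413 of GRCm38, had 8.17, 8.91 and 9.62 TPM in anti-PD1 lungs and 17.4, 20.1 and 20.1 TPM in the PBS lungs. The groups stood clear of each other with little spread within either, and the difference was -1.03 (SE 0.12) with a limma adjusted p of 0.122. Elane, the gene of neutrophil elastase on chromosome 10 from 79886247 to 79888215, had 5.55, 4.72 and 5.70 against 10.1, 12.9 and 13.6 TPM in the same order of groups, with a difference of -1.05 (SE 0.15) and a limma adjusted p of 0.234. Cebpe, a transcription factor needed for granule formation, had 19.9, 18.1 and 18.6 TPM with the antibody and 29.3, 39.00 and 28.7 TPM with PBS, also without overlap. The member with a higher mean was Gfi1, a transcriptional repressor of granulocyte development that is also used by lymphocytes, at 2.28, 1.56 and 5.50 against 1.24, 1.49 and 3.25 TPM. Gfi1 and the other exceptions to a list's direction named below were picked after their values were seen.

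Secondary and tertiary granule genes gave a median of -0.65, with 13 of 14 lower, 11 of them at an unadjusted p under 0.05. Cd177, a surface protein of neutrophils, had 355, 302 and 330.5 TPM in anti-PD1 lungs and 499.5, 653 and 464 TPM in the PBS lungs. Ceacam10, a secreted member of the carcinoembryonic antigen family, had 56.7, 46.7 and 54.5 against 77.2, 92.7 and 75.97 TPM. In both genes PBS 2 was the highest lung and the other PBS lungs were still above each anti-PD1 lung. The exception was Lyz2, the lysozyme gene that macrophages also express strongly, at 9703, 9659.8 and 7871 against 9010.4, 6785 and 8492 TPM with overlapping groups. Of the 20 genes of mature neutrophils all had lower means, with a median of -0.41, 13 at an unadjusted p under 0.05, and 15 without overlap. Retnlg, a secreted resistin-like protein, had 4926, 4709 and 4673 TPM in anti-PD1 lungs and 6598, 8497 and 7007 TPM in the PBS lungs. Trem1, a receptor that amplifies inflammation, had 217, 222 and 224 against 327, 316 and 253 TPM, and Il1r2, a decoy receptor for interleukin 1, had 102, 89.6 and 92.5 against 128, 169 and 117 TPM. S100a8 and S100a9, the most abundant transcripts of the PBS lungs, were less separated. S100a8 had 49436, 47348 and 46182 against 55875, 76037 and 53054 TPM, without overlap but with an adjusted p of 0.578 by limma, and S100a9 had 64736, 72197 and 56846 against 71434, 91362 and 67487 TPM with overlap.

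The medians were nearer to 0 without PBS 2, the library richest in neutrophil transcripts. Those of the precursor, later granule and mature lists were then -0.53, -0.51 and -0.29, with 7 of 12, 9 of 14 and 11 of 20 genes lower at an unadjusted p under 0.05. Without anti-PD1 3 these counts were 7, 10 and 8, and without both anti-PD1 3 and PBS 3 they were 7, 10 and 12. Over all tested genes, 1170 were lower at that p with all libraries. The number was 793 without PBS 2, 666 without anti-PD1 3 and 647 without both anti-PD1 3 and PBS 3.

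Eosinophil genes had the lowest median of the 45 gene lists, at -0.87, with 6 of 7 tested members lower, and their median stayed the lowest under each alternative but a pseudocount of 5. Eosinophils are granulocytes of type 2 immunity and of the response to parasites. Prg2, the major basic protein of their granules on chromosome 2 from 84980461 to 84983632 of GRCm38, had 3.49, 7.41 and 9.06 TPM in anti-PD1 lungs and 30.00, 47.1 and 27.6 TPM in the PBS lungs. The groups were far apart, the PBS mean was 5.25-fold the anti-PD1 mean, and the difference was -2.27 (SE 0.33) with a limma adjusted p of 0.234. Ear6, an eosinophil-associated ribonuclease, had 7.75, 15.1 and 11.8 against 34.8, 47.4 and 26.9 TPM, a difference of -1.58 (SE 0.27). Alox15, a lipoxygenase of eosinophils and of some macrophages, had 8.37, 8.87 and 9.08 against 19.99, 40.4 and 15.8 TPM, with PBS 2 about as high as the other PBS lungs together. Epx, the eosinophil peroxidase, did not reach the filter, at 0.503, 0.349 and 0.435 TPM in anti-PD1 lungs and 0.936, 1.85 and 0.692 TPM in the PBS lungs, again without overlap. Siglecf, a surface receptor of eosinophils that alveolar macrophages share, went the other way, at 63.9, 75.4 and 66.04 against 62.2, 42.9 and 57.1 TPM. Its groups did not overlap, and it was the 1 member higher at an unadjusted p under 0.05. At an unadjusted p under 0.05, 6 members were lower, against 3 without PBS 2 and 4 without any 1 of the anti-PD1 lungs, and the list's median without PBS 2 was -0.73.

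The type 2 response as a whole did not follow the eosinophil genes, with 5 of 10 tested members lower and a median of -0.08. The members with the smallest p were lower. Ccl24, a chemokine that attracts eosinophils, had 5.82, 6.99 and 5.43 TPM in anti-PD1 lungs and 12.3, 18.7 and 11.6 TPM in the PBS lungs, with a difference of -1.08 (SE 0.20). Retnla, a secreted product of macrophages activated by type 2 cytokines, had 41.6, 40.8 and 72.6 against 93.1, 109.8 and 75.6 TPM, and Il4ra, a subunit of the receptors for interleukins 4 and 13, had 129, 126 and 112 against 142, 189 and 151 TPM. Neither of these overlapped between groups, though anti-PD1 3 came close to PBS 3 in Retnla. Of 12 basophil and mast cell genes, 8 had lower means, with a median of -0.14. The mast cell proteases Tpsb2 and Mcpt4 had 2.98, 1.04 and 1.60 and 2.47, 0.334 and 1.05 TPM in the anti-PD1 lungs against 4.30, 4.65 and 10.6 and 3.02, 3.79 and 10.6 TPM in the PBS lungs, and in both PBS 3 was far above the rest. Gata2, a transcription factor of these cells and of endothelium, was higher by value, at 9.67, 11.00 and 14.6 against 7.53, 7.50 and 8.67 TPM.

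Glycolytic genes had lower means with the granulocyte genes, 15 of 16, with a median of -0.31, 12 at an unadjusted p under 0.05 and 14 without overlap. Glycolysis is the main source of energy in neutrophils. Slc16a3, which exports lactate, had 360.1, 373 and 301 TPM in anti-PD1 lungs and 584, 653 and 479.9 TPM in the PBS lungs. Slc2a3, a glucose transporter, had 112, 108 and 96.7 against 167, 217 and 137 TPM, and Hk3, a hexokinase of myeloid cells, had 93.4, 95.9 and 89.2 against 129, 161 and 115 TPM. PBS 2 was the highest lung in all of these, and without it the median was -0.22 with 10 of 16 genes lower at an unadjusted p under 0.05, against 6 without anti-PD1 1. Whether the granulocyte share moves this list was not tested. Among genes by which leukocytes bind endothelium, 7 of 10 had lower means and 3 an unadjusted p under 0.05. Itgam, an integrin subunit of myeloid cells, had 258, 266 and 236 against 362, 467 and 327 TPM, and Selp, the P-selectin of platelets and endothelium, had 16.9, 23.1 and 17.9 against 31.7, 36.1 and 23.5 TPM. Itga4, an integrin subunit of lymphocytes, monocytes and eosinophils, had 36.5, 37.7 and 36.3 against 41.1, 49.8 and 42.9 TPM.

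**Figure D3:**
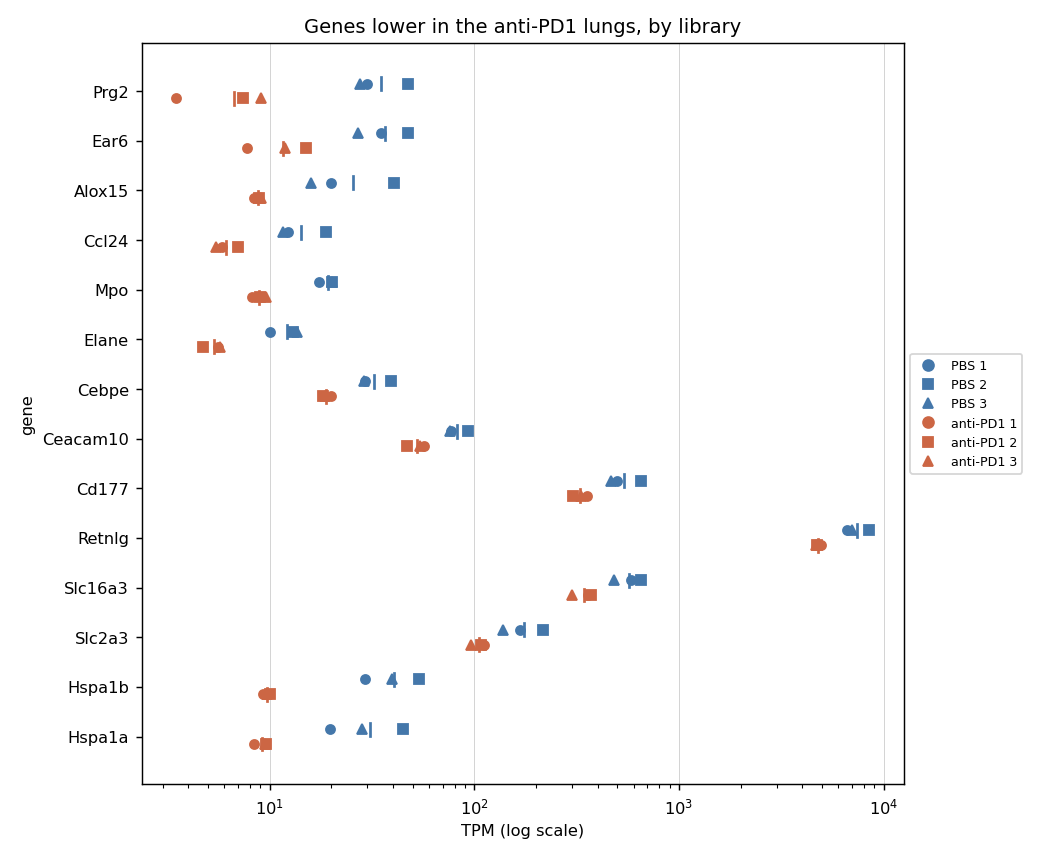
TPM (log scale) in each lung for 14 genes with lower means in the anti-PD1 lungs, with a vertical tick at each group's mean. In each gene the 3 anti-PD1 lungs lie below the 3 PBS lungs, PBS 2 is the highest or among the highest in most, and the gap is widest for Prg2 (5.25-fold) and Hspa1b (4.22-fold). The genes were picked from the named genes, which were chosen largely by small p or no overlap, so this separation is partly built in. Over all tested genes, 13.6% lay this way.

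Genes of the capillary wall went in the opposite direction. All 21 endothelial genes had higher means in the anti-PD1 lungs, 17 at an unadjusted p under 0.05 and 15 without overlap, with a median difference of 1.17. Cldn5, a tight junction protein of endothelium on chromosome 16 from 18776847 to 18778262 of GRCm38, had 36.6, 33.3 and 66.00 TPM in anti-PD1 lungs and 14.5, 5.11 and 22.6 TPM in the PBS lungs. The anti-PD1 mean was 3.22-fold the PBS mean, with a difference of 1.76 (SE 0.49) and a limma adjusted p of 0.234. Cdh5, the cadherin of endothelial junctions, had 17.4, 12.4 and 26.5 against 6.26, 2.08 and 9.55 TPM, and Tmem100, a membrane protein of endothelium downstream of BMP signalling, had 14.5, 12.2 and 23.5 against 4.97, 2.34 and 7.87 TPM. Clec14a, a lectin of endothelium, and Ramp2, the partner of the adrenomedullin receptor, had differences of 1.34 and 1.55. In these 5 genes PBS 2 was the lowest lung and anti-PD1 3 the highest. Pecam1, found also on platelets and leukocytes, overlapped between groups at 33.3, 27.9 and 44.4 against 22.9, 19.04 and 30.1 TPM. Foxf1, a transcription factor of lung mesenchyme and endothelium, was among the 6 largest positive differences of genes with a mean of 5 TPM or more, no overlap between groups and an established symbol, at 12.1, 8.74 and 22.2 TPM in anti-PD1 lungs and 4.44, 1.27 and 6.16 TPM in the PBS lungs, as was Ppp1r14a, an inhibitor of myosin phosphatase, at 14.1, 20.2 and 37.2 against 6.56, 3.76 and 10.9 TPM.

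Genes of the alveolar epithelium also had higher means in the anti-PD1 lungs. Type 2 cells make surfactant, and 13 of their 15 genes had higher means, 9 at an unadjusted p under 0.05, with a median of 0.73. Sftpc, the surfactant protein C gene on chromosome 14 from 70520949 to 70524081 of GRCm38, had 1479.9, 1256 and 3316 TPM in anti-PD1 lungs and 804, 343 and 1021 TPM in the PBS lungs. Anti-PD1 3 was far above the other lungs and PBS 2 far below them, and the groups did not overlap. Sftpb, another surfactant protein, had 124, 134 and 251 against 73.5, 38.2 and 92.3 TPM, Slc34a2, a phosphate transporter, had 10.96, 10.95 and 19.98 against 5.90, 2.99 and 7.97 TPM, and Cd36, a fatty acid transporter also present on endothelium and macrophages, had 49.6, 59.8 and 69.5 against 39.3, 25.8 and 42.97 TPM. Type 1 cells form the gas exchange surface, and 10 of their 11 tested genes had higher means, 5 at an unadjusted p under 0.05, with a median of 0.67. Emp2, a membrane protein of these cells, had 27.8, 28.5 and 45.97 TPM in anti-PD1 lungs and 12.4, 4.62 and 15.3 TPM in the PBS lungs. Clic5, a chloride channel protein, had 4.36, 4.86 and 7.16 against 2.01, 1.27 and 2.93 TPM, and Cldn18, a tight junction protein of alveolar epithelium, had 3.43, 6.60 and 9.27 against 1.82, 1.59 and 2.60 TPM. Ager had 26.3, 39.8 and 56.3 against 17.03, 17.1 and 27.5 TPM, and its groups overlapped. In contrast, 0 of 12 genes of the airway epithelium had an unadjusted p under 0.05, 3 were lower at that p without PBS 2, and their median was 0.16, or -0.14 without PBS 2. Scgb1a1 had 3212, 9961 and 9193 TPM in anti-PD1 lungs and 4254, 2608 and 6649 TPM in the PBS lungs.

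Of 15 tested genes of fibroblasts, pericytes and smooth muscle, 14 had higher means, 10 at an unadjusted p under 0.05, with a median of 0.71. Pdgfra, the receptor that marks alveolar fibroblasts, had 2.37, 2.71 and 2.53 against 1.48, 0.842 and 1.20 TPM, Tbx4, a transcription factor of lung mesenchyme, 1.53, 1.13 and 1.74 against 0.392, 0.292 and 0.767 TPM, and Inmt, a methyltransferase abundant in lung, 53.8, 69.00 and 141 against 38.2, 21.6 and 47.4 TPM. Tbx4 reached the filter only through the anti-PD1 lungs, so the filter itself favoured its direction. With no filter, 17 of 18 genes of this list had higher means, 8 at an unadjusted p under 0.05, with a median of 0.58. With a filter of 5 TPM, 6 genes remained, 5 with higher means and 3 of them at that p. Collagen and matrix genes separated less, with 14 of 18 higher, 4 at an unadjusted p under 0.05, and a median of 0.35. Bgn, a matrix proteoglycan, had a difference of 1.15, Col4a1, a collagen of basement membranes, 1.05 and Spp1, a matrix protein secreted by macrophages and epithelium, 0.66. Col1a1, the main fibrillar collagen, overlapped between groups at 26.8, 13.5 and 25.1 TPM in anti-PD1 lungs and 22.9, 9.66 and 15.2 TPM in the PBS lungs.

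The structural lists separated less without PBS 2 or without anti-PD1 3, and so did the tested genes as a whole. Without PBS 2 the medians were 0.81 for endothelium, 0.51 and 0.43 for type 2 and type 1 cells, 0.52 for the fibroblast list and 0.15 for matrix. The counts at an unadjusted p under 0.05 were then 14, 7, 3, 2 and 2. Without anti-PD1 3 these counts were 12, 6, 4, 3 and 1. Over all tested genes, those higher at that p numbered 635 without PBS 2 and 567 without anti-PD1 3, against 1092 with all 6 libraries. Endothelial genes stayed the most separated of these lists in both cases. Without PBS 3 the count for type 1 cells was 8.

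Transcripts of blood, heart muscle and mitochondria also had higher means. All 7 tested erythroid genes had higher means in the anti-PD1 lungs, with a median of 1.42 and summed levels of 12559 to 25904 TPM in anti-PD1 lungs and 3508 to 13263 TPM in the PBS lungs. Hba-a1, an alpha-globin gene, had 2809.7, 2581 and 5514 TPM in anti-PD1 lungs and 2731, 731 and 973 TPM in the PBS lungs, where PBS 1 lay within the anti-PD1 range. Its near-identical copy Hba-a2 can share reads with it. Hbb-bt, a beta-globin gene, had 768, 756 and 1488 against 718, 224 and 279.9 TPM. Bpgm, an enzyme of red cells, had a difference of 0.85. All 7 erythroid genes had an unadjusted p under 0.05, but 2 without PBS 2, 2 without anti-PD1 3, 2 without PBS 3 and 0 without both anti-PD1 3 and PBS 3. Platelet genes were higher by value in 9 of 9, with a median of 0.49 and 3 at an unadjusted p under 0.05, against 0 without anti-PD1 2 and 1 without anti-PD1 3 or PBS 2. Treml1, a receptor of platelet granules, had 2.16, 3.76 and 3.01 against 1.75, 1.59 and 1.53 TPM, and Itga2b, the platelet fibrinogen receptor subunit, had 8.74, 15.5 and 10.9 against 8.06, 7.10 and 8.45 TPM.

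Markers of tissue that dissection may include were also examined. Of 11 cardiac muscle genes 6 reached the filter, all with higher means in the anti-PD1 lungs, 4 at an unadjusted p under 0.05, with a median of 0.99. Their summed level was 19.3 to 34.4 TPM in anti-PD1 lungs and 7.13 to 16.3 TPM in the PBS lungs. Sln, a regulator of the calcium pump in atrial muscle, had 1.24, 4.40 and 3.68 TPM in anti-PD1 lungs and 0.242, 0.535 and 0.494 TPM in the PBS lungs. Myl4, an atrial myosin light chain also used by other cells, had 10.9, 9.03 and 12.6 against 5.17, 4.21 and 7.33 TPM, and Tnnt2, cardiac troponin T, had 1.34, 2.13 and 3.31 against 0.576, 0.157 and 0.783 TPM. Sln and Tnnt2 reached the filter only through the anti-PD1 lungs, so the filter itself favoured their direction. With no filter, 10 of the 11 genes had higher means and 1 a lower one, 6 were higher at an unadjusted p under 0.05, and the median was 0.72. Myocardium also extends along the pulmonary veins of the mouse, and these genes cannot tell it from heart. Of 9 skeletal muscle genes 3 reached the filter, with a median of 0.26 and 0 at an unadjusted p under 0.05, and Myh4 was at 0 in all 6 lungs. Of 8 adipose genes 1 did, and Lep was at 0 in all 6. The part that blood content or the portion of lung sampled has in the structural differences was not tested.

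The 13 protein-coding genes of the mitochondrial genome were all higher in each anti-PD1 lung than in any PBS lung, with a median difference of 0.70 and 10 at an unadjusted p under 0.05. They encode core subunits of the respiratory chain. mt-Atp6, a subunit of ATP synthase, had 6415, 6498 and 6822 TPM in anti-PD1 lungs and 4952, 3077 and 4338 TPM in the PBS lungs. mt-Nd1 and mt-Nd6, subunits of complex I, each had a difference of 0.88. PBS 2 was the lowest lung in all 3, and without it the median was 0.46 with 9 genes at an unadjusted p under 0.05, against 6, 3 and 4 without anti-PD1 1, 2 and 3. Nuclear genes of the same pathway had smaller differences, 19 of 20 positive with a median of 0.18, and 9 at an unadjusted p under 0.05, or 5 without anti-PD1 2 and 2 without anti-PD1 3. Cox6c, a subunit of cytochrome oxidase, had 413, 416 and 424 against 331, 299 and 351 TPM without overlap, and Ndufb5 and Ndufv1, subunits of complex I, had differences of 0.46 and 0.29. Genes of cytosolic ribosomal proteins had a median of 0.14 and 0 of 20 at an unadjusted p under 0.05.

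**Figure D4:**
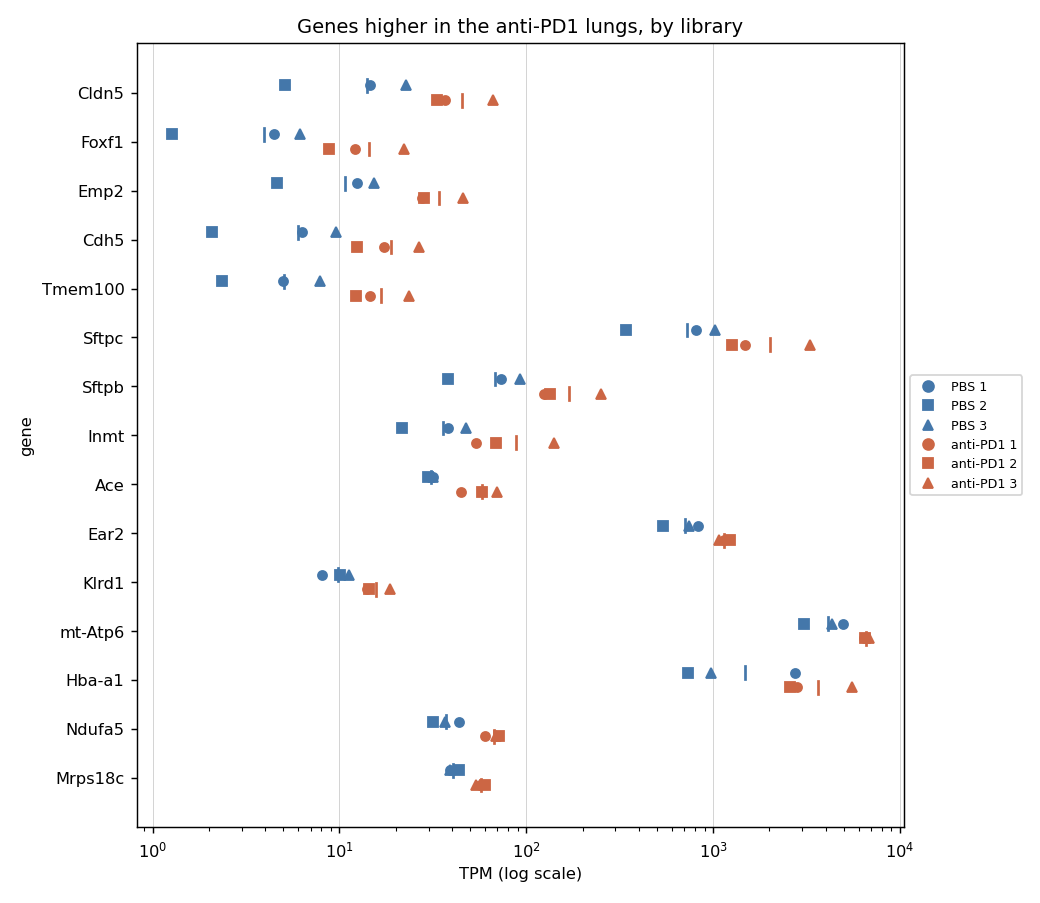
TPM (log scale) in each lung for 15 genes with higher means in the anti-PD1 lungs, with a vertical tick at each group's mean. PBS 2 is the lowest lung for most of the endothelial and epithelial genes and anti-PD1 3 the highest, while Ndufa5, Mrps18c and mt-Atp6 separate the groups with less spread within them. The genes were picked from the named genes, which were chosen largely by small p or no overlap.

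Macrophages of the alveolar space, which clear particles and surfactant, had 19 of 20 genes with higher means in the anti-PD1 lungs, a median of 0.49 and 8 higher at an unadjusted p under 0.05. Ear2, a ribonuclease of these cells, had 1139, 1233 and 1074 TPM in anti-PD1 lungs and 828, 540.4 and 744 TPM in the PBS lungs. Fabp1, a fatty acid binding protein, had 111, 154 and 126 against 90.8, 64.5 and 81.1 TPM, and Mrc1, the mannose receptor, had 105, 121 and 98.7 against 87.8, 56.6 and 77.04 TPM. The groups did not overlap in any of these, and PBS 2 was the lowest lung. The exception was Serpinb1a, an inhibitor of neutrophil proteases, at 96.1, 82.99 and 81.9 against 101, 109.8 and 104 TPM. The median was 0.22 without PBS 2 and 0.70 without PBS 1, the latter with 16 genes higher at an unadjusted p under 0.05. Monocyte and interstitial macrophage genes had no common direction, with 7 higher, 9 lower and a median of -0.07. Ace, the angiotensin converting enzyme, which lung capillaries and some monocytes carry, had 44.7, 58.2 and 69.8 TPM in anti-PD1 lungs and 31.8, 29.6 and 31.7 TPM in the PBS lungs. Adgre1, the macrophage antigen F4/80, had 42.6, 42.5 and 38.5 against 34.8, 31.2 and 34.5 TPM, and Folr2, a folate receptor of resident macrophages, had 1.65, 1.04 and 1.95 against 3.32, 2.57 and 2.97 TPM, lower in each anti-PD1 lung. Dendritic cell genes had higher means in 11 of 13, with a median of 0.23 and 2 at an unadjusted p under 0.05, against 8 of 13, 0.06 and 0 without PBS 2.

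T cells are the main target of the antibody, and 19 of 21 T cell genes had higher means in the anti-PD1 lungs, but 0 had an unadjusted p under 0.05, against 7 without anti-PD1 2. The list's median was 0.28, and -0.03 without anti-PD1 3. Cd8a, the co-receptor of cytotoxic T cells, had 17.7, 6.85 and 54.8 TPM in anti-PD1 lungs and 8.54, 7.83 and 26.3 TPM in the PBS lungs, and Trbc1, a constant segment of the T cell receptor, had 144, 75.4 and 294 against 67.04, 62.3 and 158 TPM. Within each group lung 3 was the highest for both genes, and these were the same libraries as those highest in the 6 tested genes of immature thymocytes. The thymocyte list had summed levels of 17.2 to 130.1 TPM in anti-PD1 lungs and 17.7 to 52.1 TPM in the PBS lungs. Without anti-PD1 3 and PBS 3 the T cell median was 0.28, with 1 gene at an unadjusted p under 0.05. Whether thymus tissue or circulating immature T cells carried these transcripts was not tested.

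Genes of cytotoxic lymphocytes and natural killer cells had higher means in 19 of 20, 8 at an unadjusted p under 0.05 and 6 without overlap, with a median of 0.39. Klrd1, the CD94 chain of natural killer receptors on chromosome 6 from 129591782 to 129598775 of GRCm38, had 14.00, 14.4 and 18.7 TPM in anti-PD1 lungs and 8.02, 10.1 and 11.3 TPM in the PBS lungs. Klrc1, its NKG2A partner, had 3.97, 5.19 and 5.84 against 2.53, 3.15 and 2.90 TPM, and Gzma, a granzyme, had 114, 176 and 164 against 86.98, 108 and 106 TPM. Gzmb, the granzyme of activated killer cells, overlapped between groups at 11.1, 16.5 and 13.7 against 9.17, 13.1 and 8.87 TPM. Ifng, the gene of interferon gamma, had 3.36, 3.60 and 3.65 against 2.50, 4.99 and 2.37 TPM, and PBS 2 was its highest lung. The median was 0.38 without PBS 2. In place of 8 genes at that p there were 3 without anti-PD1 2 or without anti-PD1 3, 4 without PBS 1 and 5 without PBS 3.

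The target and its ligands gave no separation. Pdcd1, on chromosome 1 from 94038305 to 94052553 of GRCm38, had 5.31, 1.45 and 3.33 TPM in anti-PD1 lungs and 2.60, 0.586 and 2.45 TPM in the PBS lungs, with lung 2 the lowest in both groups and a limma adjusted p of 0.518. An antibody that blocks the protein need not change its transcript, so this level does not check the labels. Cd274 had 43.9, 44.6 and 34.7 against 38.5, 25.2 and 33.9 TPM, and Pdcd1lg2 had 2.14, 1.88 and 2.28 against 1.82, 1.94 and 2.18 TPM. Foxp3, which specifies regulatory T cells, had 4.87, 3.42 and 3.20 against 3.82, 3.40 and 4.90 TPM. Of the 17 genes of checkpoints and regulatory T cells, 13 had higher means, the median was 0.15, and 1, Havcr2 (TIM-3), had an unadjusted p under 0.05, at 12.1, 12.3 and 11.6 TPM in anti-PD1 lungs and 10.3, 6.90 and 8.93 TPM in the PBS lungs.

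B cell genes had a median of -0.05, with 11 of 16 lower, a direction that turned with some single libraries left out. There were 13 higher with a median of 0.16 without anti-PD1 2, 11 higher with 0.17 without PBS 3, and 16 lower with -0.25 without PBS 2. Cxcr5, the receptor that guides B cells to follicles, was at 18.5, 11.1 and 13.5 TPM in anti-PD1 lungs and 19.6, 19.1 and 22.6 TPM in the PBS lungs. Plasma cell and immunoglobulin genes were evenly divided, 8 higher and 8 lower, with a median of 0.02, or -0.03 with median-of-ratios scaling. Without anti-PD1 2, 13 were higher with a median of 0.23, without PBS 3 12 with 0.16, and without PBS 2 10 were lower with -0.09. Igha, the constant segment of IgA, the antibody of mucosal surfaces, had 159, 134 and 246 TPM in anti-PD1 lungs and 90.8, 69.7 and 108 TPM in the PBS lungs, without overlap, and Irf4, a transcription factor of plasma cells and activated lymphocytes, had 5.36, 4.26 and 4.44 against 6.61, 6.68 and 9.95 TPM, lower in each anti-PD1 lung. For antigen presentation by MHC class II the median was 0.27, or 0.07 without anti-PD1 1 and 0.07 without PBS 2. H2-DMb1 and H2-DMa, subunits of the peptide exchange factor, were at 57.1, 36.2 and 35.4 and 141, 136 and 119 TPM in anti-PD1 lungs and 22.9, 23.2 and 27.4 and 109, 77.7 and 113 TPM in the PBS lungs. MHC class I genes had a median of 0.10 and 0 of 11 at an unadjusted p under 0.05.

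Of 24 genes induced by type I interferon, 22 had lower means in the anti-PD1 lungs, 2 at an unadjusted p under 0.05, with a median of -0.25. Over all tested genes 9% were lower at that p, so this count did not exceed the general share. Groups without overlap were also no more frequent than over all tested genes. They were seen in 2 of the 24, Oasl1 and Ddx58, and in 13.6% of all tested genes in that direction. Oasl1, an antiviral protein of the oligoadenylate synthetase family, had 35.6, 49.1 and 32.5 TPM in anti-PD1 lungs and 49.7, 69.9 and 62.8 TPM in the PBS lungs, and Ddx58, the RNA sensor RIG-I, had 27.1, 27.5 and 24.98 against 27.8, 36.3 and 36.3 TPM. The count at an unadjusted p under 0.05 was 10 without PBS 1, 8 without anti-PD1 2, 1 without any other single library, and 0 with a median of -0.06 without both anti-PD1 3 and PBS 3. Of 19 genes of the response to interferon gamma, 12 had lower means, with a median of -0.09, or 0.01 without PBS 3. Cxcl9, a T cell chemokine of this response, had 4.19, 1.98 and 0.937 against 2.25, 1.49 and 1.21 TPM with overlap, and Nos2, the inducible nitric oxide synthase, had 12.9, 9.60 and 14.2 against 19.2, 29.9 and 15.4 TPM without it. Inflammatory cytokines and chemokines had a median of -0.02, which turned to 0.14 without anti-PD1 2 and 0.12 without PBS 1. Il1b had 2986, 4607 and 3507 TPM in anti-PD1 lungs and 4478, 4046 and 3389.6 TPM in the PBS lungs, Il6 had 3.60, 2.92 and 2.82 against 3.95, 3.35 and 2.14 TPM, and Tnf had 15.5, 13.4 and 16.7 against 24.01, 18.1 and 16.05 TPM, all with overlapping groups. Il18, a cytokine of macrophages and epithelium, was higher by value at 115, 124 and 101 against 92.2, 59.05 and 83.5 TPM, as was Cxcl12, a chemokine of stroma and endothelium, at 4.41, 3.96 and 6.60 against 2.47, 1.36 and 3.22 TPM. Osm, a cytokine of neutrophils and macrophages, had 368, 395 and 353 against 425, 497 and 421 TPM, lower in each anti-PD1 lung. Among complement genes, 7 of 13 were lower by value, with a median of -0.04 that turned to 0.13 without anti-PD1 2 and 0.11 without PBS 3. Cfp, the properdin made by neutrophils and monocytes, was at 125, 121 and 119 against 170.1, 205 and 149 TPM.

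**Figure D5:**
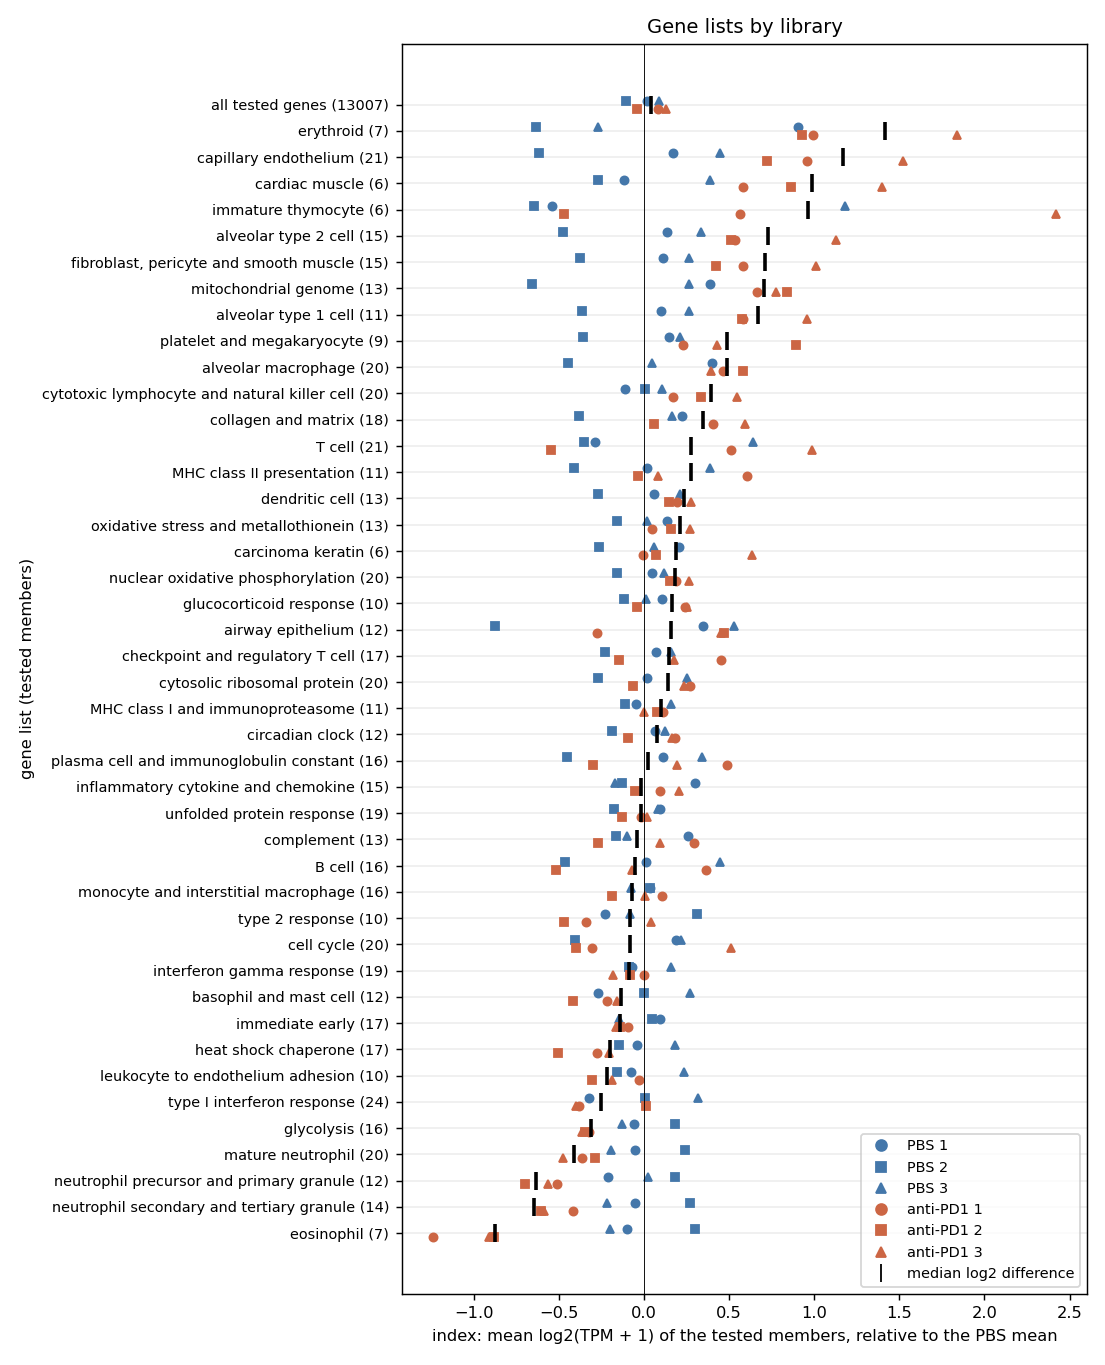
Index of each gene list in each lung, the mean log2(TPM + 1) of its tested members relative to the PBS mean (horizontal axis), with the number of tested members in brackets and the median difference as a black tick. The granulocyte and glycolysis lists lie at the bottom with all 3 anti-PD1 lungs below the PBS lungs, and the erythroid and endothelial lists at the top, where anti-PD1 3 and PBS 2 are the extremes. Lists with under 5 tested members are not drawn.

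The remaining lists differed in how many genes separated. For oxidative stress and metallothioneins the median was 0.21. At an unadjusted p under 0.05, 4 of 13 genes were higher, or 2 without anti-PD1 3 or PBS 2, and 1 was lower. All anti-PD1 lungs lay above all PBS lungs in 4 of these genes and below in 2. Over all tested genes, 8.4% were higher and 9% lower at that p, and 12.1% lay wholly above and 13.6% wholly below. Mt1, a metal-binding protein, was at 339, 364 and 332 TPM in anti-PD1 lungs and 296, 183 and 249 TPM in the PBS lungs, and Gclm, a subunit of the enzyme that limits glutathione synthesis, was at 88.4, 81.9 and 90.8 against 107, 128 and 112 TPM in the opposite direction. Sgk1, a kinase induced by glucocorticoids, had 417, 324 and 338 against 299.6, 219 and 255 TPM, and its list had a median of 0.17. Of the clock genes, which follow the time of day at collection, Per2 had 6.43, 5.18 and 5.84 against 8.10, 8.99 and 7.26 TPM and Dbp 11.6, 8.37 and 12.2 against 8.54, 6.50 and 7.16 TPM, with a list median of 0.08, or -0.02 with quantile normalization and -0.03 without PBS 2. Cell cycle genes had a median of -0.08 and 0 of 20 at an unadjusted p under 0.05, against 5 lower ones without anti-PD1 3, and the median was above 0 without anti-PD1 1, anti-PD1 2, PBS 1 or PBS 3. Of 10 keratin and epithelial genes that a carcinoma could bring, 6 reached the filter, with summed levels of 44.5 to 85.9 TPM in anti-PD1 lungs and 39.8 to 58.1 TPM in the PBS lungs. Krt8 had 7.47, 9.65 and 20.5 against 11.4, 9.09 and 12.4 TPM, Epcam 13.7, 20.6 and 29.1 against 20.02, 10.2 and 13.2 TPM and Krt7 3.51, 3.99 and 4.69 against 2.78, 2.07 and 2.67 TPM. Normal lung epithelium expresses these genes too, and Krt5, a keratin of basal cells, was at or under 0.213 TPM in each lung.

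Some of the smallest p-values outside the lists belonged to genes with little spread within the groups. Ndufa5, a subunit of complex I, had 59.8, 71.7 and 69.03 TPM in anti-PD1 lungs and 43.9, 31.6 and 36.6 TPM in the PBS lungs, a difference of 0.83 (SE 0.13). Mrps18c and Mrps33, proteins of the mitochondrial ribosome, had 56.8, 60.3 and 53.99 and 45.8, 48.2 and 41.4 TPM against 39.3, 43.7 and 38.9 and 32.5, 31.1 and 33.5 TPM with PBS. Hint2, a hydrolase of mitochondria, and Tmem256, a small membrane protein, had differences of 0.62 and 0.47. Dpm3, a subunit of the enzyme that makes dolichol phosphate mannose, Srp9, a protein of the signal recognition particle, and Med28, a subunit of Mediator, had differences of 0.57, 0.40 and 0.48. Il11ra1, the receptor for interleukin 11, had 18.1, 25.8 and 20.4 TPM in anti-PD1 lungs and 13.5, 10.6 and 11.7 TPM in the PBS lungs. Crip2, a LIM domain protein, had 33.8, 36.98 and 41.1 against 21.8, 14.9 and 22.6 TPM, and Wfdc10 had 8.63, 6.95 and 9.19 against 2.85, 3.81 and 4.80 TPM.

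On the lower side, Cep19, a protein of the centrosome and cilium base, had 31.1, 33.1 and 31.98 TPM in anti-PD1 lungs and 47.4, 53.6 and 46.6 TPM in the PBS lungs. The ubiquitin enzymes Ube2h and Rnf34 had differences of -0.55 and -0.57, Bloc1s6, a subunit of a complex that builds lysosome-related organelles, -0.57 and Atf1, a transcription factor of the CREB family, -0.43. Prg4, the lubricant proteoglycan lubricin, had 1.66, 2.99 and 2.58 against 5.67, 20.7 and 6.12 TPM, with PBS 2 far above the rest. Fcna, a lectin of macrophages, had 12.9, 2.95 and 8.79 against 28.3, 19.5 and 14.1 TPM, wide in both groups but without overlap. Genes higher at an unadjusted p under 0.05 had a median longest transcript of 2316.5 bases and those lower of 3764 bases, against 3082 bases over all tested genes, and median levels of 11.3 and 44.0 TPM against 12.2 TPM. Whether length, level or the share of granulocyte RNA moves single differences was not tested.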

How the data were processed

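The authors deposited gene-level TPM for the 9 lung libraries, scaled to a common total. salmon appears in the deposited table's name, and DESeq2 and GRCm38 appear, without versions or roles, in the submitters' processing notes. Other steps are not given in the sources used here. No count model was used, since TPM keep no depth. All sample columns matched a label.

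On log2(TPM + 1), the 6 libraries were fitted in limma 3.58.1 (R 4.3.3) with a variance trend, 4 residual degrees of freedom and Benjamini-Hochberg adjustment over 13007 genes, two-sided. The script was tested on simulated data. Positions and coding sequences came from GENCODE M21, promoters from RefSeq, and Hspa1a and Hspa1b were aligned with Biopython 1.88. No batch is labelled.

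The comparison and its 45 gene lists were chosen with earlier results of these data known, so lists are described by counts and medians and not tested. Named genes were the called genes, the 12 smallest p and 6 largest differences per direction with a mean of 5 TPM or more, no overlap between groups and an established symbol (no predicted genes, RIKEN clones, pseudogenes or variable segments), the 3 smallest p of each list, and 28 fixed genes. Not every one of the 175 genes chosen this way is named in the text: some stand only in the counts of their lists, and some are not reported here. Each result was recomputed under 19 alternatives, over pseudocounts, filters, scalings, variance models, a replicate block and the omission of libraries. Omitting anti-PD1 3 with PBS 3 was chosen after seeing the data.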

Additional observations from a re-analysis of the deposited data

How the results depend on the processing

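Over 19 alternatives, 1 choice changed at a time, 826 of 853 recomputed list medians stayed within the spread between lungs, and 2568 of 2611 recomputed values of the 139 named genes kept their direction and their side of the threshold. Some of these medians could not move. The fit on all 9 libraries, the fit without the variance trend, the robust variance estimate and the replicate block change the variance and not the differences. Their list medians equal the main ones by design and are counted among the 826. The directions of the named genes could not turn under these fits either, and these values are counted in the 2611. Every named gene but Tmem254b started above the threshold, so staying on its side was the likely outcome. The mitochondrial genome list could not be recomputed under the renormalization that leaves these genes out. The count of called genes was 0 with a pseudocount of 0.1 or with no filter, 2 (Tmem254a and Tmem254b) with median-of-ratios scaling or quantile normalization, 5 (Gm2274, Hspa1b, Mpo, Tmem254a and Tmem254b) with library weights, 2 (Rn7s2 and Tmem254b) without anti-PD1 3 and PBS 3, and 0 to 2 with 1 library left out. The fit on all 9 libraries called Hspa1b in place of Tmem254b. Genes higher at an unadjusted p under 0.05 numbered 1704 with library weights and 567 to 1404 with 1 library left out (567 without anti-PD1 3 and 635 without PBS 2), and lower genes 647 without anti-PD1 3 and PBS 3 and 666 (without anti-PD1 3) to 1080 with 1 library left out. The cause of these shifts was not tested.

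Equal replicate numbers do not mark a stated pairing. Residuals of same-numbered lungs correlated at 0.067, 0.286 and 0.286 and other pairs at -0.265 to 0.018, so each lung correlated best with its own number, which is a hint from the data and not part of the design. With the number as a replicate block, 0 genes were called, and 1695 were higher at an unadjusted p under 0.05.

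The eosinophil median was -1.40 with a pseudocount of 0.1, -0.39 with 5, -1.45 with a filter of 5 TPM and -1.12 to -0.73 with 1 library left out. A pseudocount of 5 gave 0.24 for cytotoxic cells, 0.68 for endothelium, 0.29 for fibroblasts and 0.44 for cardiac muscle, which reached 1.73 with 0.1. Library weights gave -0.38 for neutrophil precursors, 0.65 for erythroid genes, 0.065 for monocytes and -0.027 for oxidative stress, the last 2 with a changed sign. Leaving out 1 library gave -0.084 to 0.087 for monocytes, -0.24 to -0.10 for immediate early genes and 0.072 to 0.29 for oxidative stress. The type 2 response had -0.38 with a filter of 5 TPM. Without anti-PD1 3 and PBS 3, MHC class I had 0.22 and interferon gamma 0.059. The 3 skeletal muscle genes ranged over 0.40 and 0.090 with pseudocounts of 0.1 and 5, 0.032 with no filter, -0.16 with a filter of 5 TPM, 0.13 with quantile normalization, -0.083 without anti-PD1 3 and PBS 3 and 0.066 to 0.34 with 1 library left out.

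Signs turned for genes with small differences, and also for Cd8a and Epcam, whose main differences were 0.61 and 0.51. With 1 library left out, Tmem254c ranged over -0.73 to 0.78, Ifng -0.014 to 0.40, Foxp3 -0.22 to 0.052, Cd8a -0.12 to 1.29, Cxcl9 -0.12 to 0.59, Il1b -0.29 to 0.027, Il6 -0.18 to 0.15 and Krt8 -0.32 to 0.35. Library weights gave 0.043 for Tmem254c, 0.090 for Foxp3, -0.050 for Il6, -0.23 for Krt8 and -0.052 for Epcam. Without anti-PD1 3 and PBS 3 the values were 1.32, -0.032, 0.15, -0.13 and -0.23 for Tmem254c, Ifng, Foxp3, Il6 and Krt8. Quantile normalization gave -0.0078 for Ifng, -0.076 for Pdcd1lg2 and -0.14 for Il6, which had -0.047 with median-of-ratios scaling and -0.00063 with a pseudocount of 5. With 3 lungs a group and unknown depth, differences within the spread of the lungs were not detectable here.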

Other observations

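The largest difference of all tested genes, chosen here after its values were seen, belonged to Rn7s2, a gene of the 7SL RNA of the signal recognition particle, with a log2 difference of -5.32 (SE 1.91) and a limma adjusted p of 0.245. It had 0, 0 and 187 TPM in anti-PD1 lungs and 371, 111 and 286 TPM in the PBS lungs. Rn7s1, another gene of the same RNA, had 422, 422 and 233 against 0, 322 and 180.4 TPM. Their sum was 422, 422 and 420.03 TPM in anti-PD1 lungs and 371, 433 and 467 TPM in the PBS lungs, with the anti-PD1 values inside the PBS range. The groups overlapped in each of these genes as well as in their sum, whereas Tmem254a and Tmem254b did not overlap singly. Without anti-PD1 3 Rn7s2 passed the adjusted test (limma adjusted p = 0.0177).

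Variable segments of immunoglobulin genes, which the rule for named genes left out, gave large differences more often than other genes by count. Of 158 tested segments, 4 were higher and 15 lower by more than 1 on the log2 scale, or 12.03%, against 1.48% of all tested genes. All anti-PD1 lungs lay above all PBS lungs in 3 segments and below in 12, or 9.49%, against 25.7% of all tested genes. The median difference of the segments was -0.17. Related segments can share reads, and each lung has its own B cell clones, so no single segment is named.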
